A study of Mus musculus with 12 samples.

Results

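The salt-inducible kinases (Sik1, Sik2 and Sik3), the CRTC coactivators (Crtc1, Crtc2 and Crtc3) and the CREB family of transcription factors (Creb1, Crem and Atf1) were examined in the mouse cortex. These 9 genes were taken by symbol from a table of 17202 genes, and each symbol was found once. Sik1 was chosen by its level in VEH-CD mice relative to VEH-WT mice in these same samples, and the other genes were added as its family and its pathway. For that reason the difference of Sik1 between VEH-CD and VEH-WT mice is given as a description and without a test. All 9 genes passed the filter on low values, which required a mean of at least 10 normalized counts, as did 17111 genes in all.

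The 12 mice whose cortical RNA was sequenced were male and formed 4 groups of 3. The complete deletion (CD) mouse is a model of Williams-Beuren syndrome in which 1 of the 2 copies of the genes from Gtf2i to Fkbp6 on chromosome 5 is absent, and wild-type (WT) mice carry both. Vehicle (VEH) mice drank water with the solvent DMSO and are labelled untreated, whereas VERCUR mice drank curcumin together with verapamil, a blocker of voltage-gated calcium channels. By the labels the daily dose was 60 mg/kg for curcumin and 10 mg/kg for verapamil, started at 8 weeks of age and kept for 1 month, and sacrifice at 16 weeks of age for every group. The study's methods differ from the labels: they give a lower dose of verapamil, and treatment that lasted until sacrifice at an earlier age. Groups are named by treatment and genotype, as in VEH-WT or VERCUR-CD. The strain is labelled C57Bl6 in every group, and the CD line had been crossed with Thy1-YFP mice, in which a neuronal promoter drives a fluorescent protein in pyramidal neurons. None of the labels names a litter or a day of dissection. Whether the 3 mice of a group shared a litter or a day is therefore unknown. The p values of group differences set each difference against the spread between mice of a group, pooled over the 4 groups. They do not account for a shared litter or day.

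SIK kinases phosphorylate CRTC coactivators, and phosphorylated CRTCs are held in the cytoplasm by 14-3-3 proteins. When cAMP rises, protein kinase A (PKA) inhibits the SIKs, and when calcium rises, the phosphatase calcineurin removes phosphates from the CRTCs. The CRTCs then enter the nucleus, join CREB at cAMP response elements (CREs) and raise transcription. Sik1 is itself a CREB target that is induced within a short time of neuronal activity, so the kinase takes part in a negative feedback loop.

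Between 40290000 and 56480000 reads were counted on genes in each mouse. Replicates correlated with r from 0.986 to 0.994 across genes. The median of 19 genes of the deleted interval relative to the VEH-WT mean was 0.959 to 1.04 in the 6 WT mice and 0.468 to 0.530 in the 6 CD mice, so every mouse matched its genotype label. Markers of neurons were high in all mice, and their summed level ranged 1.18-fold. The summed level of 6 markers of striatal neurons ranged 4.77-fold, from 5445 normalized counts in VERCUR-WT mouse 1 to 25984 in VERCUR-WT mouse 3. The mouse VERCUR-CD 2 had the highest summed neuronal (551338) and astrocyte (264321) markers of the 12.

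The 9 genes differed in how much they varied between mice. Sik1 ranged 4.86-fold over the 12 mice, Sik2 2.39-fold, Creb1 1.53-fold and Crem 1.52-fold. The other 5 genes ranged 1.15-fold to 1.26-fold. Per kilobase of exon, which allows genes of unequal length to be compared, the highest level was that of Crtc1 (1031 ± 46.8 normalized counts per kb, mean ± SD, n = 12), followed by Sik3 (704 ± 36.1). The ranges of these 2 genes over mice did not overlap with each other or with any other of the 9. Crtc2 (183 ± 11.3), Creb1 (149 ± 18.3), Atf1 (144 ± 11.1), Sik1 (141 ± 73.7), Crem (112 ± 12.7) and Sik2 (108 ± 30.5) followed, and the ranges of neighbours in this order overlapped. Crtc3 (75.8 ± 4.55) had the lowest mean of the 9, and its range over mice (70.1 to 84.8) overlapped those of Sik1 and Sik2.

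**Figure D1:**
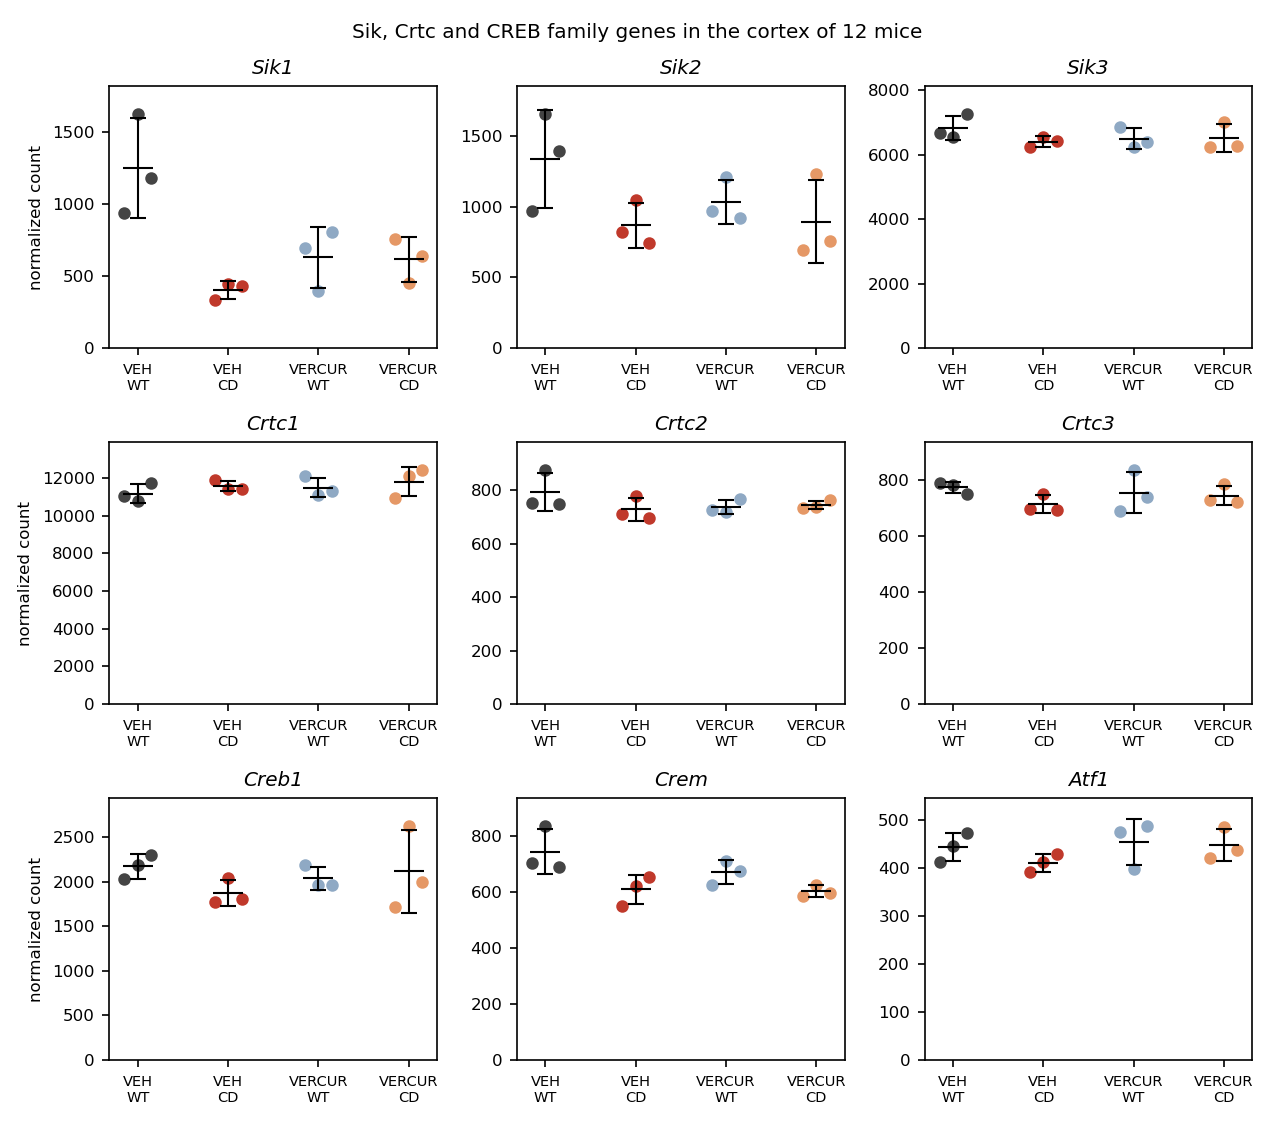
Normalized counts (y axis, from 0) of the 9 genes in each mouse (points) of the 4 groups (x axis), with the mean and SD of 3 mice as bars. The 3 VEH-WT mice lie above all other mice for Sik1, and the points of Sik3, Crtc1, Crtc2, Crtc3 and Atf1 lie within a 1.26-fold range.

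Sik1 (ENSMUSG00000024042, chromosome 17, 31844250 to 31855804, minus strand, GRCm38) encodes the inducible kinase of the family. It had 937, 1622 and 1180 normalized counts in the VEH-WT mice and 334, 444 and 432 in the VEH-CD mice. In VERCUR-WT mice it had 693, 394 and 803, and in VERCUR-CD mice 757, 450 and 641. All VEH-WT mice were above the other 9 mice, all VEH-CD mice were below all VERCUR-CD mice (444 against 450 normalized counts at the nearest), and the co-treated groups overlapped each other. The group means were 1247 ± 347 (SD, n = 3) in VEH-WT, 403.4 ± 60.7 in VEH-CD, 629.9 ± 212 in VERCUR-WT and 616 ± 155 in VERCUR-CD. In bulk tissue, less RNA per cell and fewer cells of the type that holds the RNA cannot be told apart.

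Sik2 (ENSMUSG00000037112, chromosome 9, 50892801 to 51009073, minus strand) encodes a kinase known from adipose tissue and neurons. It had 967, 1657 and 1395 normalized counts in the VEH-WT mice, 824, 1048 and 740 in VEH-CD, 973, 1208 and 921 in VERCUR-WT, and 694.5, 1231 and 759 in VERCUR-CD mice. The highest 2 values were those of VEH-WT mice, and every pair of groups overlapped. VERCUR-CD mouse 2, with 1231 normalized counts, stood above the other mice of its group. The gene overlaps Ppp2r1b on the opposite strand, and whether the counting used strand is not stated.

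Sik3 (ENSMUSG00000034135, chromosome 9, 46012820 to 46224194, plus strand) encodes the kinase of the family that is known for its part in sleep need. It ranged from 6227 to 7262 normalized counts over the 12 mice. The group means lay between 6406 ± 165 in VEH-CD and 6825 ± 384 in VEH-WT.

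The promoters of Sik2 and Sik3 are shown because these paralogs on chromosome 9 differed in how much they varied, and because CREB binds DNA at the CRE. The sequences are RefSeq's, for GRCm38.p6, from 250 bases before to 50 bases after the annotated start, 5′ to 3′ on the strand of the gene. The capitals mark the core of the CRE, searched as TGACG or, on the other strand, CGTCA.
Sik2 promoter, chr9:51009024-51009323, minus strand: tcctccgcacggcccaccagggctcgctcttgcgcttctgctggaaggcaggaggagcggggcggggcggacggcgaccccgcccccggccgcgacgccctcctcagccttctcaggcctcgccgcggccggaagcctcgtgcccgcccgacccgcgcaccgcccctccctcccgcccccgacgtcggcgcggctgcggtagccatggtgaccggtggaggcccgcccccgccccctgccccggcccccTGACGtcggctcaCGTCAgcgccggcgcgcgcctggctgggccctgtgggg
Sik3 promoter, chr9:46012570-46012869, plus strand: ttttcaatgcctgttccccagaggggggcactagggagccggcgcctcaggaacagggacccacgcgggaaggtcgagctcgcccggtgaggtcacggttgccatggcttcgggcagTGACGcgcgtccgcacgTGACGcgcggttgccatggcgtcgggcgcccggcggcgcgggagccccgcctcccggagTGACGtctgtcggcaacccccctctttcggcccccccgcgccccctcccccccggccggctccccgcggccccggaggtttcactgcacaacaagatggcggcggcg
In the Sik2 window the cores began at positions -1 and 13 relative to the start, counted without a position 0, and in the Sik3 window they began at -133, -116 and -57. RefSeq promoters were read for 6 of the 9 genes, and those of Sik1, Crtc2 and Crem were not read. Their absence here does not show that RefSeq lacks them. Atf1 held 1 core at position -90, and the windows of Crtc1, Crtc3 and Creb1 held none. The core is present in 20.8% of 32851 promoters of this length, and the full CRE, TGACGTCA, which contains it, in 1.79%. None of the 6 windows held the full CRE. A match describes letters in the window and not a site of binding.

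The share of Sik1 in the summed level of the 3 kinases, per kb of exon, was 21.6% on average in VEH-WT, 9.14% in VEH-CD, 13.1% in VERCUR-WT and 13.3% in VERCUR-CD mice. Over single mice it ran from 7.93% to 26.5%. Sik3 accounted for 58.9% to 81.5% of the summed level and was the most abundant of the 3 in all 12 mice.

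**Figure D2:**
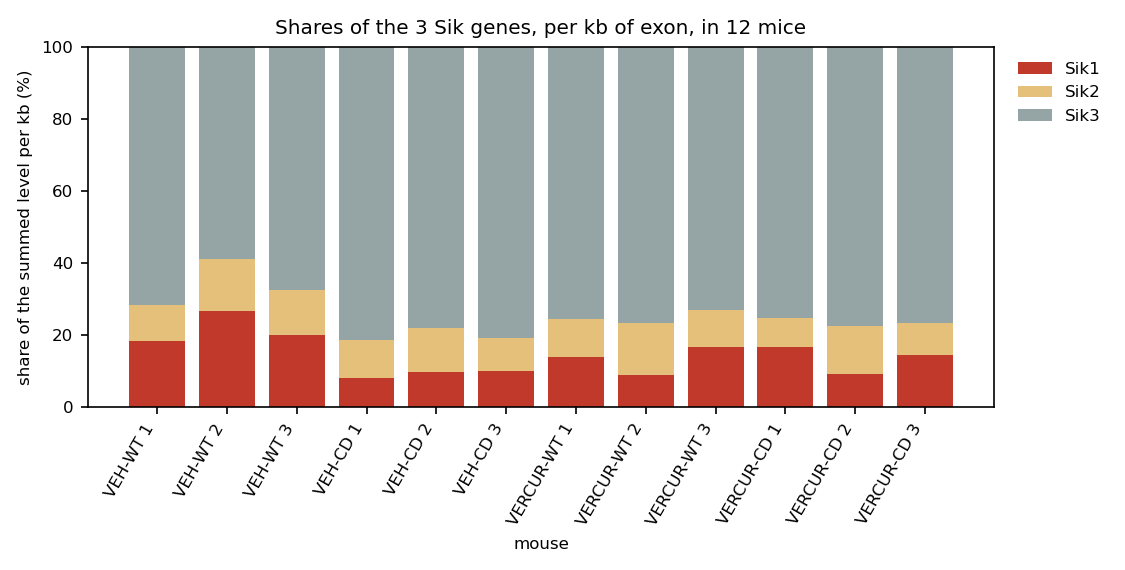
Share (y axis, %) of Sik1, Sik2 and Sik3 in their summed normalized counts per kb of exon, for each of the 12 mice (x axis, 1 bar per mouse). The Sik1 share is 18.3% to 26.5% in the VEH-WT mice and at most 16.7% in the other mice.

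The CRTC coactivators varied little. Crtc1 (ENSMUSG00000003575, chromosome 8, 70382355 to 70439579, minus strand), the form that prevails in neurons, made up 76.7% to 81.4% of the summed CRTC level per kb. It ranged from 10796 to 12429 normalized counts over the 12 mice. Crtc2 (ENSMUSG00000027936, chromosome 3, 90254163 to 90264125, plus strand), known from glucose production in liver, had 753, 875 and 749 normalized counts in VEH-WT mice, and the other 9 mice lay between 697 and 779. Crtc3 (ENSMUSG00000030527, chromosome 7, 80586627 to 80688877, minus strand) had 790, 781 and 750.1 normalized counts in the VEH-WT mice, all above the 697, 749.7 and 691 of the VEH-CD mice. In the co-treated mice it had 691 to 835 normalized counts, over the range of both vehicle groups.

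Creb1 (ENSMUSG00000025958, chromosome 1, 64532645 to 64604548, plus strand), the activator to which CRTCs bind, had 2028, 2191 and 2298 normalized counts in the VEH-WT mice, 1779, 2047 and 1806 in VEH-CD, 2192, 1961 and 1969 in VERCUR-WT, and 1719, 2626 and 2004 in VERCUR-CD mice. The VERCUR-CD group held both the lowest and the highest mouse of the 12, the highest being VERCUR-CD mouse 2. Atf1 (ENSMUSG00000023027, chromosome 15, 100227819 to 100261244, plus strand), a close relative that pairs with Creb1, ranged from 391.9 to 488 normalized counts, and every pair of groups overlapped.

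Crem (ENSMUSG00000063889) gives rise to activators and, from an internal promoter, to the inducible repressor ICER, and the gene count does not separate these forms. Gm6225 overlaps it on the opposite strand. It had 705, 837 and 692 normalized counts in the VEH-WT mice, 552, 624 and 655 in VEH-CD, 628, 711 and 677 in VERCUR-WT, and 587, 628 and 598 in VERCUR-CD mice. CD mice were below WT mice within each treatment, with 655 against 692 normalized counts at the nearest in vehicle mice and 627.71 against 627.9 in co-treated mice.

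Whether CD and WT cortex differed in these genes under co-treatment was examined in mice that had played no part in the choice of Sik1. The fold changes rest on these mice alone. The spread behind the intervals and p values was pooled over the 4 groups and so includes the vehicle mice. None of the 9 genes was called between VERCUR-CD and VERCUR-WT mice. A call required limma's adjusted p to be under 0.05 and the log2 fold change to be over 0.32 or under -0.42, and 25 genes (0.146% of those tested) were called in this comparison, 16 of them among the 19 genes of the deleted interval. For Sik1 the log2 fold change was -0.0019 ± 0.27 (SE), with a 95% interval from -0.59 to 0.58 and an adjusted p of 0.9999 in limma's test. With 3 mice in each group, a difference of a size inside this interval is not excluded. The interval is not the limit of a call, which also depends on the correction over all genes tested. Sik2 had the largest difference of the 9, a log2 fold change of -0.25 (95% interval -0.74 to 0.25), which became -0.50 without VERCUR-CD mouse 2. Crem was lower in all 3 VERCUR-CD mice than in the VERCUR-WT mice, with a log2 fold change of -0.15 (-0.36 to 0.05). Such non-overlap with lower values in CD was found for 1 of the 9 genes and for 3.83% of all genes. The other 6 genes had log2 fold changes between -0.02 and 0.04. The adjusted p was 0.9999 for each of the 9 genes, and none of them had an unadjusted p under 0.05, against 701 of 17111 genes. The median log2 fold change of the 9 was -0.0019, and that of all genes was 0.0044.

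Between VEH-CD and VEH-WT mice, the comparison by which Sik1 was selected, Sik1 was lower in VEH-CD with a log2 fold change of -1.60 (0.330-fold). It was the 1 gene of the 9 among the 44 (0.257% of those tested) that were called, and nothing is read from that. The call was lost without any 1 of 5 mice, VEH-WT 2, VEH-WT 3, VEH-CD 1, VEH-CD 2 and VEH-CD 3, and held without VEH-WT 1. The log2 fold change stayed between -1.79 and -1.39 in these fits. The other genes were chosen for belonging to the pathway, but in view of these same mice, and their differences are also descriptions. Sik2 had -0.60, Crem -0.28, Creb1 -0.21, Crtc2 -0.12, Crtc3 -0.12, Atf1 -0.11, Sik3 -0.09 and Crtc1 0.05. Markers of cell types moved alongside. Of 6 neuronal markers, 4 had lower and 2 higher values in VEH-CD (median log2 fold change -0.05). They ran from -0.24 for Gad2 to 0.06 for Slc17a7. Of the 6, 3 were lower without overlap, against 11.4% of all genes. All 5 markers of red blood cells had higher values in VEH-CD (median log2 fold change 0.36), with sums of 17575 to 26146 normalized counts among VEH-WT and 20822 to 35997 among VEH-CD mice. All 6 markers of oligodendrocytes had lower values (median -0.16), with sums of 137398 to 215106 among VEH-WT and 128322 to 163000 among VEH-CD mice. Of 5 choroid plexus markers, 4 had lower and 1 higher values (median -0.26). Of 6 microglial markers, 4 had higher and 2 lower values (median 0.14). The medians were -0.10 for meningeal fibroblasts, -0.03 for astrocytes, and 0.03 for both endothelial cells and striatal neurons. None of these markers was called, and their part in the values of the 9 genes and of the genes downstream of CREB was not tested. VEH-CD mice did not overlap with VEH-WT mice, and were lower, for Sik1, Crtc3 and Crem, while this held for 11.4% of all genes.

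Co-treatment of WT mice was examined next. Neither any of the 9 genes nor any of the 17111 tested (0.0%) was called between VERCUR-WT and VEH-WT mice by limma, where 893 genes had an unadjusted p under 0.05 and the smallest adjusted p was 0.206. With voom on whole reads 0 genes were called too. Sik1, whose VEH-WT mice had served to choose it, had a log2 fold change of -1.01 (0.497-fold), and its groups did not overlap, as for 5.25% of all genes with lower values in VERCUR-WT. Without VERCUR-WT mouse 2 this value was -0.70, and without VEH-WT mouse 2 it was -0.80. Among the other 8 genes, the values were -0.35 for Sik2 (95% interval -0.84 to 0.15), -0.14 for Crem and between -0.10 and 0.04 for the remaining genes, each with an adjusted p of 0.999 in limma's test and none with an unadjusted p under 0.05. Markers of striatal neurons moved alongside. All 6 were lower in VERCUR-WT (median log2 fold change -0.95), with summed normalized counts of 11558 to 22244 in VEH-WT and 5445 to 25984 in VERCUR-WT mice. All 6 markers of oligodendrocytes were lower as well (median -0.49). Of 5 choroid plexus markers, 3 were lower and 2 higher (median -0.39), and all 5 markers of red blood cells were higher (median 0.20). None of these markers was called, and their part in the values of the 9 genes was not tested.

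In CD mice, VERCUR-CD was compared with VEH-CD. Again none of the 9 genes and none of the 17111 tested (0.0%) was called by limma, with 605 genes at an unadjusted p under 0.05 and a smallest adjusted p of 0.159. With voom on whole reads 0 genes were called. The VEH-CD mice had also served to choose Sik1, which had a log2 fold change of 0.59, with all 3 VERCUR-CD mice above the VEH-CD mice. Non-overlap with higher values in VERCUR-CD was found for 3.71% of all genes. The other 8 genes had log2 fold changes from -0.01 for Crem to 0.15 for Creb1, with adjusted p values from 0.867 to 0.996 in limma's test and none with an unadjusted p under 0.05. The value of Creb1 became -0.01 without VERCUR-CD mouse 2. Sik2, at 0.01, had a 95% interval from -0.49 to 0.50. All 6 astrocyte markers had higher values in VERCUR-CD (median log2 fold change 0.24), with sums of 150503 to 175403 normalized counts in VEH-CD and 162486 to 264321 in VERCUR-CD mice. All 6 striatal markers had lower values (median -1.17). Without VERCUR-CD mouse 2 these medians were 0.11 and -0.72. All 5 markers of red blood cells had lower values as well (median -0.34). The part of these markers in the values of the 9 genes was not tested.

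The effect of co-treatment was then compared between genotypes. The difference of the log2 fold changes in CD and in WT mice was 1.60 for Sik1, which includes the mice that chose it and is not tested. For the other 8 genes it ran from -0.01 for Crtc1 to 0.36 for Sik2, with adjusted p values of 0.819 to 0.969 in limma's interaction test. These comparisons share control mice, so their values are set side by side only.

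**Figure D3:**
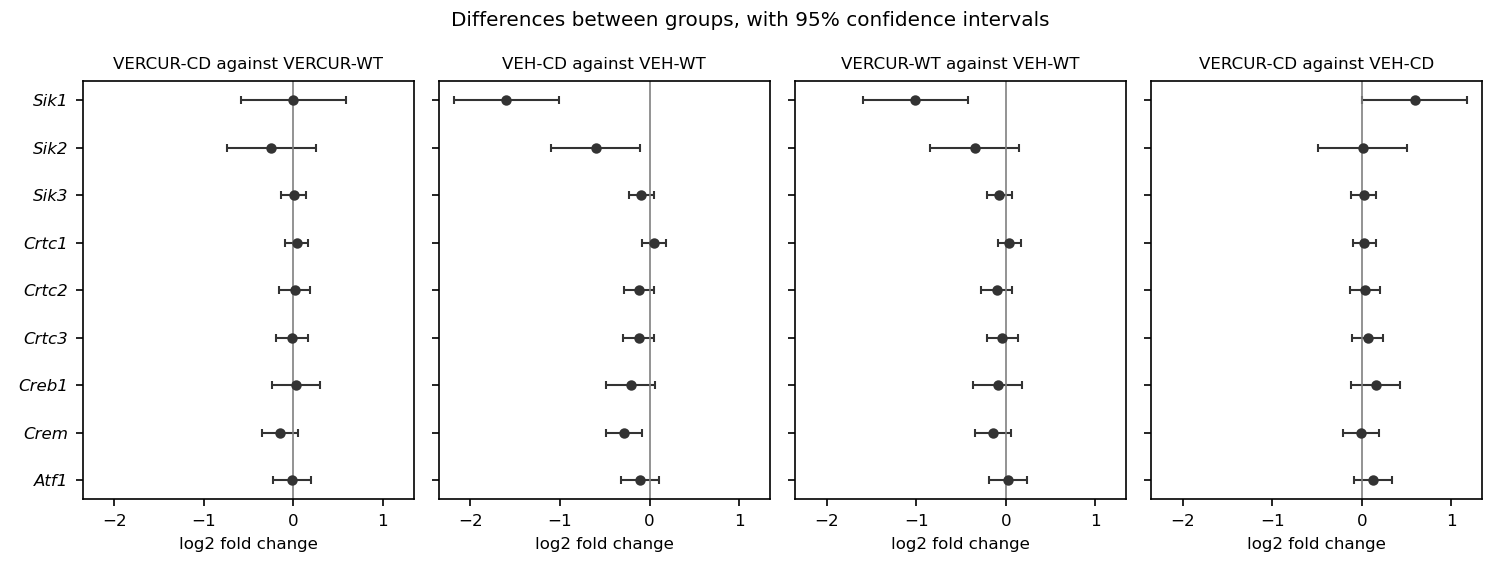
Log2 fold changes (x axis) of the 9 genes (y axis) with 95% confidence intervals from limma in the 4 comparisons (panels), 3 mice per group. Sik1 lies at -1.60, -1.01 and 0.59 in the comparisons that hold the mice used to choose it and at -0.0019 between VERCUR-CD and VERCUR-WT, where the intervals of all 9 genes include 0.

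The 9 genes did not vary together as 1 set. Over the deviations of the 12 mice from their group means, Sik3 and Creb1 had the highest Pearson r of the 36 pairs (0.81), followed by Sik2 and Creb1 (0.75) and Sik3 and Atf1 (0.72). Sik1 had r = -0.20 with Sik2, -0.13 with Sik3, 0.58 with Crtc2 and -0.59 with Crtc3. These values are descriptions, and VERCUR-CD mouse 2 has the highest value of its group for Sik2, Sik3, Creb1 and Atf1.

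The genes that act on the SIK, CRTC and CREB proteins gave 0 calls in any of the 4 comparisons, by limma's main test and by voom on whole reads. They were the LKB1 complex (5 genes), which activates the SIKs, cAMP synthesis and breakdown (13 genes), PKA subunits and inhibitors (9), the calcium kinases and calcineurin (16), CBP, p300 and partners of the CRTCs (12), the class IIa histone deacetylases, which SIKs also phosphorylate, with the MEF2 factors that they repress (7), and other CREB and ATF genes (14 of 15 in the table). Of these 76 genes, 3 had an unadjusted p under 0.05 between VERCUR-CD and VERCUR-WT mice, 7 between VEH-CD and VEH-WT, 2 between VERCUR-WT and VEH-WT and 1 between VERCUR-CD and VEH-CD. The shares over all genes were 4.10%, 11.8%, 5.22% and 3.54% in the same order, so nothing is read from these counts. Between VERCUR-CD and VERCUR-WT mice the median log2 fold changes of these lists lay between -0.05 and 0.04. Adcy1, a calcium-stimulated adenylyl cyclase, had 0.31, and Pde10a, a phosphodiesterase abundant in striatum, had -0.38. Camk1g, a calcium-dependent kinase, had -0.34, and Ppp3ca, the catalytic subunit of calcineurin, had 0.17. Ep300, the acetyltransferase p300, had 0.15, and Ywhag, a 14-3-3 protein, had -0.07. Hdac5 had -0.13, Hdac4 -0.11, Cab39 and Strada, partners of LKB1, 0.10 and 0.05, Pkib, an inhibitor of PKA, 0.12, and Prkar1b, a regulatory subunit, -0.05. Each of these genes had an adjusted p of 0.9999 in limma's test.

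Between VEH-CD and VEH-WT mice the medians of the same lists lay between -0.10 and 0.02. The factor Creb3l3, known from liver, had mean levels of 21.9 normalized counts in the VEH-WT mice, 57.1 in VEH-CD, 32.7 in VERCUR-WT and 28.4 in VERCUR-CD mice. Its log2 fold change between the vehicle groups was 1.36 and is a description (not called, adjusted p 0.0697 in limma's test). Creb5 had a log2 fold change of 0.33 between the co-treated groups.

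Genes downstream of CREB were also read. In VEH-CD against VEH-WT mice, the comparison that chose Sik1, the values of these genes are descriptions too. Of 30 CREB target genes, 1, Klf4, was called lower and 0 were called higher. Klf4 had a log2 fold change of -0.96 and an adjusted p of 0.0322 in limma's test, and nothing is read from that call. Klf4, a zinc finger factor, had 476 normalized counts on average in VEH-WT, 239.5 in VEH-CD, 295.6 in VERCUR-WT and 278 in VERCUR-CD mice. Its call was lost without any 1 of the mice VEH-WT 2, VEH-WT 3, VEH-CD 1, VEH-CD 2 and VEH-CD 3 and held without VEH-WT 1, and it was also lost with voom, with no intensity trend and in a fit of only the 6 mice compared. Of the 30 genes, 27 had lower and 3 higher values in VEH-CD, with a median of -0.37 against -0.0028 for all genes. Of the 30, 15 did not overlap, with lower values, against 11.4% of all genes. None of 15 immediate early genes, which are transcribed within minutes of neuronal activity, was called by limma's main test or by voom, while 11 had an unadjusted p under 0.05, against 11.8% of all genes. All 15 had lower values in VEH-CD (median -1.15), and 12 did not overlap, against the same 11.4% of all genes. The lists share 9 genes. Sik1 is in neither of them. Over the 12 mice the mean of the immediate early genes had r = 0.949 with Sik1. Their values in this comparison are therefore not independent of its choice.

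Under co-treatment, 8 of the 15 immediate early genes had higher and 7 lower values in VERCUR-CD than in VERCUR-WT mice, with a median log2 fold change of 0.0076. Arc, a synaptic protein, had 26594 normalized counts on average in VEH-WT, 6157 in VEH-CD, 11851 in VERCUR-WT and 12652 in VERCUR-CD mice. The transcription factor Egr1 had 26273, 11732, 17117 and 13131 in the same order, and its relative Egr4 had 4396, 1865, 2829 and 2113. Of the 30 CREB targets, 13 had higher and 17 lower values in VERCUR-CD, with a median of -0.08. None of either list was called by either test. An unadjusted p under 0.05 was found for 1 CREB target and 0 immediate early genes, against 4.10% of all genes. Between VERCUR-WT and VEH-WT mice the medians were -0.74 for the immediate early genes and -0.40 for the CREB targets, and between VERCUR-CD and VEH-CD mice they were 0.35 and 0.09, with 0 calls in each by either test. In WT mice 7 of the 15 and 10 of the 30 genes had an unadjusted p under 0.05, against 5.22% of all genes. In CD mice 1 gene of each list had, against 3.54% of all genes. Both comparisons hold vehicle mice that served to choose Sik1, so these counts are descriptions.

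**Figure D4:**
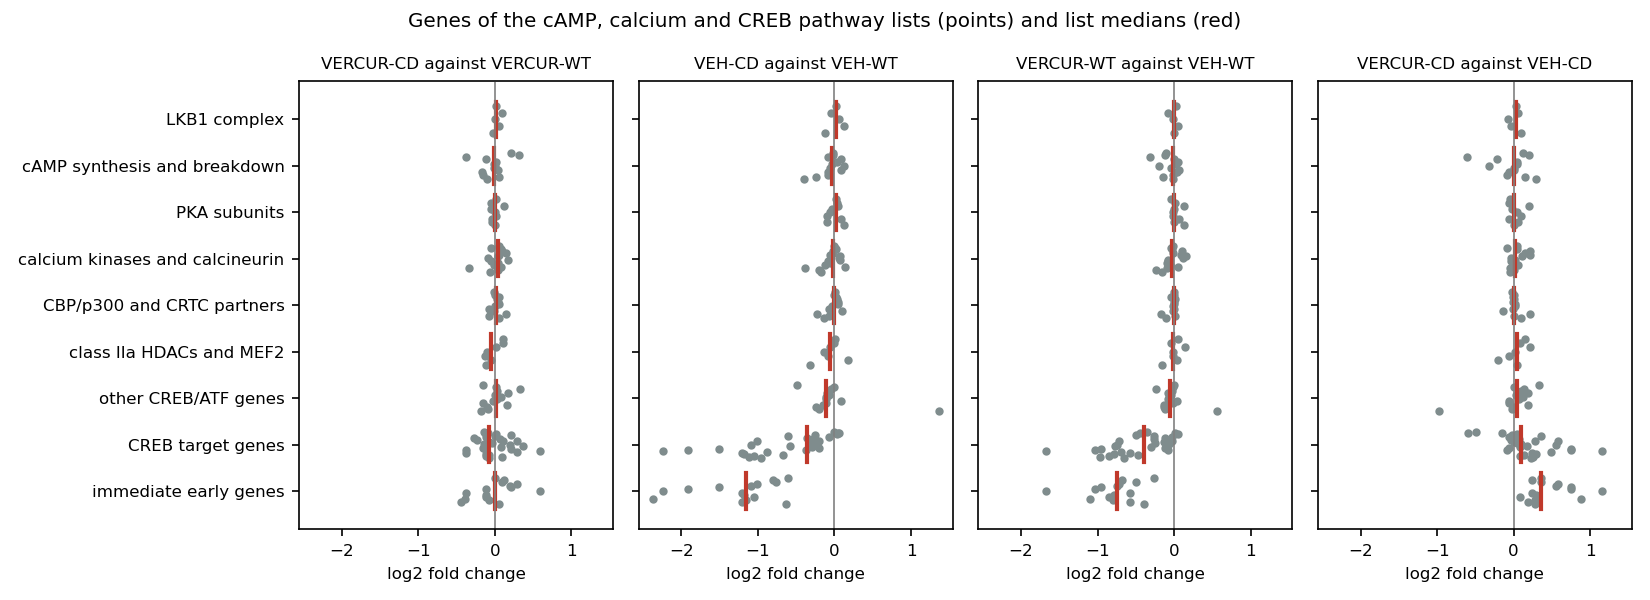
Log2 fold changes (x axis) of the genes (points) of 9 pathway lists (y axis) in the 4 comparisons (panels), with the list median as a red line. The medians of the immediate early genes lie at -1.15 and -0.74 in the comparisons with VEH-WT and at 0.0076 between the co-treated groups, and the lists of upstream genes lie within about 0.1 of 0.

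Sik1 varied between mice with the immediate early genes. Over the 6 co-treated mice, which were not used to choose Sik1, its log2 level and the mean log2 level of the 15 genes had Pearson r = 0.962 (exact permutation p = 0.00417, two-sided) and Spearman rho = 0.943 (exact permutation p = 0.0167). The Benjamini-Hochberg adjusted value of the former over the 9 relations tested was 0.0375, by the exact permutation test. The share of all genes with an r this high with Sik1 over these 6 mice was not counted. The list and the test were chosen with earlier results of these data known, which this adjustment does not cover. The mean of the list was 11.26, 10.11 and 11.30 in VERCUR-WT and 11.14, 10.59 and 10.92 in VERCUR-CD mice. Mice VERCUR-WT 2 and VERCUR-CD 2 were the lowest in both measures and the farthest from the median, and r was 0.748 in the 4 mice without them, so the relation rests in part on these mice. Each genotype holds 3 co-treated mice, too few for a value within genotype. Over the deviations of all 12 mice from their group means r was 0.914, as a description. Of the 8 other genes of the pathway, Crtc3 had r = -0.850 with Sik1 over the co-treated mice (exact permutation p = 0.0389, adjusted 0.175), and it was 0.559 without the mice farthest from the median. Sik2 had r = -0.788 (exact permutation p = 0.0861, adjusted 0.258), and the remaining genes had exact permutation p values from 0.217 to 0.836.

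**Figure D5:**
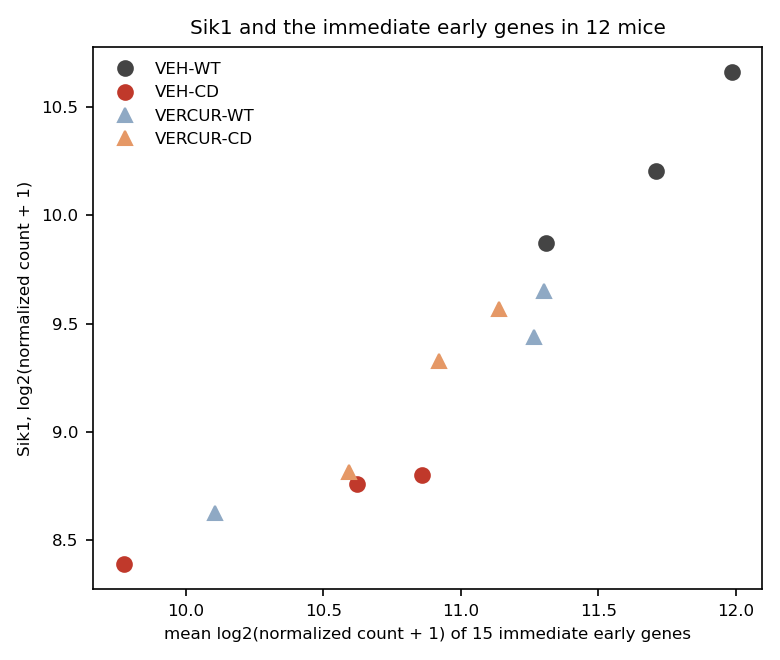
Log2(normalized count + 1) of Sik1 (y axis) against the mean of the same quantity over 15 immediate early genes (x axis), 1 point per mouse, circles for vehicle and triangles for co-treated mice. Mice low in one were low in the other, within the co-treated mice (r = 0.962) as over all 12 (r = 0.949).

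The genes most like Sik1 over the 12 mice, by Pearson r of log2 levels, were Arl4d (0.953), Dusp5 (0.952), Irf2bp2 (0.943), Gadd45b (0.942) and Coq10b (0.938). Arl4d encodes a small GTPase, Dusp5 a phosphatase of ERK, Irf2bp2 a transcriptional corepressor, Gadd45b a stress-induced protein and Coq10b a protein of coenzyme Q function. Over deviations from the group means, the highest values were those of Gm4890 (0.979), Dusp5 (0.978), Gm9899 (0.966), B3galnt2 (0.961) and Mbd6 (0.949). Gm4890 ranged from 8.97 to 25.01 normalized counts and is close to the limit of the filter. Only Dusp5 stood in both groups of 5. It ranged from 265 to 1193 normalized counts, and its log2 fold change was -1.18 in VEH-CD against VEH-WT and 0.34 in VERCUR-CD against VERCUR-WT mice. Over all 17111 genes the median r with Sik1 was -0.0071, with 165 genes over 0.8 and 46 under -0.8.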

How the data were processed

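The authors sequenced cortical RNA of 12 mice in paired-end reads, aligned them to GRCm38 with STAR 2.5.3a after FastQC, per the submitters' processing notes, and deposited normalized counts per gene and mouse. The counting program, annotation and normalization are not given in the sources used here. In each mouse 100% of the low deposited values were whole multiples (tolerance 0.1) of 1 step, from which reads were derived to describe depth and for voom. The authors also deposited a table of their top differentially expressed genes and one of genes they call recovered, which hold their own comparisons and were not used.

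Group differences were tested with limma 3.58.1 (R 4.3.3) on log2 values with a pseudocount of 1. The fit held 17111 genes, those whose mean reached 10, and all 12 mice, with 4 group means and a variance trend over intensity. Two-sided p values were corrected over every gene tested by the method of Benjamini and Hochberg. Calls required an adjusted p under 0.05 together with a log2 fold change above 0.32 or below -0.42. Positions and exon lengths are those of GENCODE M21, in which 17181 of 17202 genes were found.

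The genes, the pathway lists and the tests were chosen with earlier results of these data known. Besides the 9 genes, the text names, from each pathway list, any gene called in one of the 4 comparisons and the 2 of largest change between VERCUR-CD and VERCUR-WT, and the 5 genes most like Sik1 by r over mice and over deviations. As alternatives, the pseudocount was set to 0.1 or 5, the filter was dropped or raised to a mean of 50, values were quantile-normalized or median-centred, the fit was run on the compared groups alone, without the trend, with sample weights or with the replicate block, the adjusted p was used alone, and each mouse was left out in turn. Weights estimated gene by gene and voom on whole reads were chosen after seeing the data.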

Additional observations from a re-analysis of the deposited data

Results flagged for a closer look

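Sik1 was flagged because the co-treated mice lay on opposite sides of the vehicle mice in the 2 genotypes. All 3 VERCUR-WT mice were below all VEH-WT mice, and all 3 VERCUR-CD mice were above all VEH-CD mice. The log2 fold changes of co-treatment were -1.01 in WT and 0.59 in CD mice, and their difference was 1.60. This difference was not tested, since it includes the vehicle mice by which Sik1 was chosen. A gene chosen for a low level in VEH-CD relative to VEH-WT mice tends to have the other mice in between, so nothing is read from the pattern. Non-overlap was found for 5.25% of all genes in WT mice (lower) and 3.71% in CD mice (higher), and the share with both was not computed. In CD mice the gap between the groups is 444 against 450 normalized counts at the nearest.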

How the results depend on the processing

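None of the 9 genes was called between VERCUR-CD and VERCUR-WT under any alternative run, nor was any between VERCUR-WT and VEH-WT. Between VEH-CD and VEH-WT the number called went from 1 (Sik1) to 0 with no intensity trend, with voom on whole reads and with the replicate block, and was 0 to 1 when single mice were left out. Between VERCUR-CD and VEH-CD it went from 0 to 1 (Sik1) with sample quality weights. The default estimation of these weights did not converge. Over all genes, they called 299, 354 and 1015 genes in the comparisons of VERCUR-CD with VERCUR-WT, VEH-CD with VEH-WT and VERCUR-CD with VEH-CD, against 25, 44 and 0, and gene-by-gene weights called 46, 349 and 6. Leaving out single mice gave 23 to 28, 24 to 47 and 0 to 2 calls in these comparisons, and 0 to 3 between VERCUR-WT and VEH-WT. The lowest vehicle count, 24, arose on leaving out mouse 2 of VEH-WT and mouse 1 or 3 of VEH-CD, and 28 arose without mouse 3 of VEH-WT. The treatment comparisons gave 1 call without VERCUR-WT 1, 3 without VERCUR-WT 3 and 2 without VERCUR-CD 2. The cause of these shifts was not tested. The replicate block gave 26, 40, 0 and 0 calls over all genes. Same-numbered mice deviated with r from -0.35 to 0.27, over 0.1 in 4 of 18 pairs. Differently numbered mice had r from -0.23 to 0.32. Whether same-numbered mice shared a litter or a day cannot be read from these values.

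Values near 0 changed sign with no call. Between VERCUR-CD and VERCUR-WT, with sample quality weights and with gene-by-gene weights, Sik1 was 0.090 and 0.072, Sik3 -0.045 and -0.041 and Creb1 -0.018 and -0.037. Sik3 was -0.0044 with quantile normalization and -0.0086 with voom, and Crtc2 was -9.9e-06 with voom. Between VERCUR-CD and VEH-CD, with quantile normalization, sample weights, gene-by-gene weights and voom, Sik2 was -0.018, -0.068, -0.061 and -0.0285 and Sik3 -0.00032, -0.027, -0.0147 and -0.0059. Crtc1 was -0.0015 and Crtc2 -0.00045 with voom. Leaving out single mice, the log2 fold changes between VERCUR-CD and VERCUR-WT ran from -0.31 to 0.21 for Sik1, -0.053 to 0.042 for Sik3, -0.0046 to 0.045 for Crtc2, -0.078 to 0.059 for Crtc3, -0.14 to 0.17 for Creb1 and -0.11 to 0.039 for Atf1. In WT mice, treatment gave -0.11 to 0.022 for Crtc3 and -0.027 to 0.12 for Atf1. In CD mice it gave -0.25 to 0.17 for Sik2, -0.033 to 0.051 for Sik3, -0.011 to 0.082 for Crtc1, -0.014 to 0.29 for Creb1 and -0.083 to 0.041 for Crem. The relation of Sik1 to the immediate early genes had r from 0.941 to 0.977 without single mice and 0.748 without the 2 mice farthest from the median.

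The planned count models were not run, since the deposited values are not raw counts, and voom took their place. With 3 mice in each group, differences of a size inside the intervals given are not excluded, and larger ones can also go uncalled.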
